A study of Mus musculus with 6 samples.

Results

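Ugt3a2, Cyp2b10 and Gadd45b are 3 of the 332 genes in a deposited table of liver transcripts from mice given gigantol or vehicle. They were picked by symbol as a drug-conjugating enzyme and a pair of genes known to respond to the nuclear receptor CAR, and were picked with their difference between the groups already known. The table itself holds only genes selected on that same comparison, with unadjusted p-values up to 0.0499 and log2 fold changes of 1.00 or more in size. The differences given here between gigantol and vehicle livers are therefore descriptions of these 6 livers and carry no test of the 3 genes.

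The 6 animals were male mice of the outbred Kunming stock, 6 to 8 weeks old and weighing 20 to 28 g. Of these, 3 were given gigantol, a bibenzyl found in Dendrobium orchids, by mouth at 10 mg/kg, and 3 were given an equal volume of a vehicle that the labels do not name. Livers were taken 4 h later from both groups, ribosomal RNA was removed, and stranded libraries were sequenced. PANC1, which is a human pancreatic cancer line, stands in the sample titles with the endings OE and Vector, whereas all 332 gene IDs and the labels for organism, tissue and treatment are those of mouse liver, so the groups rest on the treatment label that goes with each title. Values are CPM, the reads of a gene per 1000000 reads of its library. Depth worked out from the smallest CPM steps was about 21200000 to 26700000 reads per library, so that 1 read was worth 0.0374 to 0.0471 CPM.

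The constitutive androstane receptor, CAR, is a nuclear receptor of hepatocytes that moves into the nucleus after exposure to phenobarbital and many other foreign compounds and pairs with RXR on DNA. Its targets include cytochrome P450 enzymes, which oxidise drugs, and transferases, which couple drugs or their oxidised products to a sugar, sulfate or glutathione for excretion. Cyp2b10 encodes the mouse P450 most often used as a readout of CAR. Gadd45b encodes a small stress-inducible protein that binds MAP kinase kinases and is induced early in liver by CAR activators, and also by inflammatory and growth signals. Ugt3a2 encodes a membrane-bound glycosyltransferase of the endoplasmic reticulum, of a small family set apart from the UGT1 and UGT2 glucuronosyltransferases.

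All 3 genes are protein-coding and lie on the plus strand in the table. Ugt3a2 (ENSMUSG00000049152) is placed on chromosome 15 from 9335636 to 9371041, Cyp2b10 (ENSMUSG00000030483) on chromosome 7 from 25597045 to 25626049, and Gadd45b (ENSMUSG00000015312) on chromosome 10 from 80765907 to 80768038. The sources used here do not name the mouse build of these coordinates. RefSeq promoter windows on another build, GRCm38.p6, from 250 bases before the annotated start to 50 bases after it, were matched by symbol for 2 of the 3 genes. They are shown because both genes stood higher in the gigantol livers. They were searched on both strands for AGGTCA (the half-site bound by CAR, RXR and other nuclear receptors), TATAAA (bound by the TATA-binding protein), CCAAT (bound by NF-Y), CACGTG (the E-box of bHLH factors), GGCGGG (the core of Sp1 sites) and TTGCNNAA (a C/EBP site), and capitals mark every match. The windows are chr7:25897408-25897707 for Cyp2b10 and chr10:80929841-80930140 for Gadd45b, both on the plus strand and written 5′ to 3′.
Cyp2b10: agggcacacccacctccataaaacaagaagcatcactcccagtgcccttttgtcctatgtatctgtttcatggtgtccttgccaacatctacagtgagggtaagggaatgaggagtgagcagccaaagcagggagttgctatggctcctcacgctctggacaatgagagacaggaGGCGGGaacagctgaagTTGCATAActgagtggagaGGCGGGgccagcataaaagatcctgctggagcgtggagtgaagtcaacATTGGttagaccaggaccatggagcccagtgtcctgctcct
Gadd45b: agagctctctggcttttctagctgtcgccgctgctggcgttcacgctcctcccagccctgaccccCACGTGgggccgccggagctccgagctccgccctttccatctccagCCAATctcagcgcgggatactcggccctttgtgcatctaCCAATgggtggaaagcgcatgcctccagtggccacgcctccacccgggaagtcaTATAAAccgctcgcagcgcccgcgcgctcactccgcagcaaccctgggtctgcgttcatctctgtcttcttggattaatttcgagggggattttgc

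The Cyp2b10 window held GGCGGG beginning 75 and 39 bases before the start, TTGCATAA, a match to the C/EBP letters, 58 bases before it, and CCAAT on the minus strand just downstream of the start. GGCGGG was in 35.3%, TTGCNNAA in 10.8% and CCAAT in 37.4% of all 32851 windows of this length. The Gadd45b window held TATAAA 46 bases, CCAAT 100 and 139 bases, and CACGTG 185 bases before the start, and TATAAA and CACGTG were in 13.6% and 7.15% of all windows. CCAAT was the only one of the 6 motifs found in both. AGGTCA, in 16.3% of all windows, was in neither. The phenobarbital-responsive enhancer of Cyp2b10, known from earlier work, lies upstream of the stretch printed here, so these letters say nothing about it.

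Ugt3a2, the glycosyltransferase, differed most between the groups. It read 243, 150 and 225 CPM in gigantol replicates 1, 2 and 3 and 62.7, 20.8 and 18.3 CPM in vehicle replicates 1, 2 and 3. Every gigantol liver lay above every vehicle liver, and the lowest gigantol liver was 2.40 times the highest vehicle liver. The means were 206 ± 49.2 and 33.9 ± 24.9 CPM (SD, n = 3 each), 6.07-fold apart. The vehicle mean rested in part on vehicle replicate 1, without which it was 19.6 CPM and the means were 10.5-fold apart. limma on log2(CPM + 1) put the difference at 2.76 ± 0.56 (SE), and the authors' deposited table gave a log2 fold change of 2.61 and an FDR of 6.49e-06.

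Cyp2b10, the CAR marker P450, was higher in only 2 of the 3 gigantol livers. Gigantol replicates 1 and 3 read 160 and 195 CPM, gigantol replicate 2 read 59.0 CPM, and vehicle replicates 1, 2 and 3 read 67.5, 49.2 and 55.8 CPM. Gigantol replicate 2 thus fell inside the vehicle range and the groups overlapped. The means were 138 ± 70.8 and 57.5 ± 9.28 CPM (SD, n = 3 each), 2.40-fold apart, or 3.09-fold apart without gigantol replicate 2. The limma difference on log2(CPM + 1) was 1.09 ± 0.55 (SE), and went to 1.62 ± 0.41 without gigantol replicate 2 and to 0.76 ± 0.66 without gigantol replicate 3. The authors' deposited table gave a log2 fold change of 1.27 and an FDR of 0.104.

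Gadd45b, the stress-inducible kinase partner, was the least abundant of the 3 and differed least. It read 11.8, 6.15 and 11.6 CPM in gigantol replicates 1, 2 and 3 and 4.94, 4.22 and 5.42 CPM in vehicle replicates 1, 2 and 3. The groups did not overlap, but gigantol replicate 2 was only 1.13 times the highest vehicle liver. The means were 9.85 ± 3.21 and 4.86 ± 0.60 CPM (SD, n = 3 each), 2.03-fold apart. The limma difference on log2(CPM + 1) was 0.84 ± 0.40 (SE), and the authors' deposited table gave a log2 fold change of 1.02 and an FDR of 0.0850. That fold change was the third smallest of the 119 genes listed higher. The genes just below it were C8b and Serpina1d at 1.01 and 1.00, and the one just above it was Gm44231 at 1.03, all from the authors' deposited table.

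**Figure D1:**
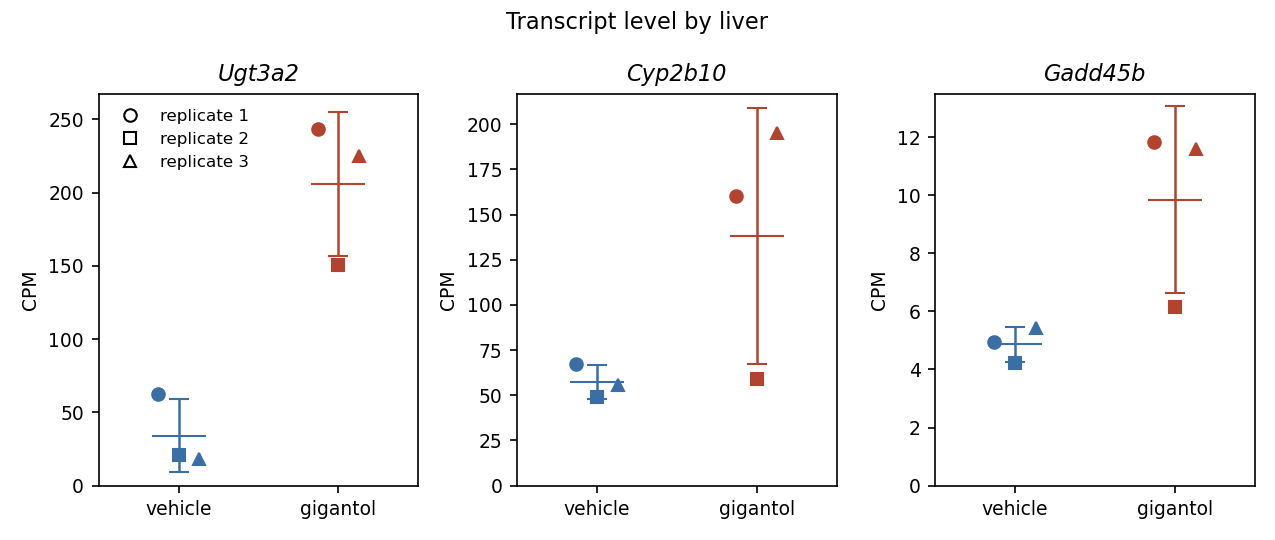
CPM of Ugt3a2, Cyp2b10 and Gadd45b (vertical axes, linear from 0) in the 3 vehicle and 3 gigantol livers, 1 marker shape per replicate number, with the group mean and SD as bars. Gigantol replicate 2, the square, is the lowest gigantol liver in each panel, and for Cyp2b10 it lies at 59.0 CPM among the vehicle livers.

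Of the 3 genes, 1 (Ugt3a2) was higher with an FDR under 0.05 in the authors' deposited table, as were 10.2% of all 332 listed genes; 15.7% were lower with such an FDR, 25.9% in either direction. In 2 of the 3, Ugt3a2 and Gadd45b, the gigantol livers did not overlap the vehicle livers, with all gigantol livers above, as was so for 23.5% of the listed genes (72% in either direction). Since the genes and the table were both chosen on this contrast, nothing is read from these shares. The authors' deposited table gives p and FDR values, the latter over 13192 genes, that place Ugt3a2 at rank 14, Gadd45b at rank 149 and Cyp2b10 at rank 166.

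Counting error was small beside the spread between livers for Ugt3a2 and Cyp2b10, but not for Gadd45b in vehicle livers. By the CPM steps, Ugt3a2 rested on 423 to 5527 reads per liver, Cyp2b10 on 1257 to 4802 and Gadd45b on 108 to 285, for a counting error of at most 4.86%, 2.82% and 9.62%. The SD between livers, as a percentage of the mean, was 23.9% in gigantol and 73.4% in vehicle livers for Ugt3a2, 51.2% and 16.1% for Cyp2b10, and 32.6% and 12.4% for Gadd45b. Among the 3 genes, Ugt3a2 thus varied most between vehicle livers and Cyp2b10 between gigantol livers. In bulk liver, fewer cells of a type and less RNA per cell cannot be told apart.

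Levels of different genes can be compared only per transcript length, for which the merged exons of each gene in the GENCODE M21 annotation were used (3102 bases for Ugt3a2, 2112 for Cyp2b10 and 1589 for Gadd45b). In vehicle livers the level per kb of exon was 27.2 ± 4.39 CPM for Cyp2b10, 10.9 ± 8.03 for Ugt3a2 and 3.06 ± 0.38 for Gadd45b (SD, n = 3), and Cyp2b10 was above Ugt3a2 in all 3 livers. In gigantol livers the level per kb was 66.4 ± 15.9 CPM for Ugt3a2 and 65.4 ± 33.5 for Cyp2b10, which do not differ beyond their spread. Within gigantol livers Ugt3a2 was above Cyp2b10 per kb in replicate 1 (78.4 against 75.9 CPM) and replicate 2 (48.4 against 27.9 CPM) and below it in replicate 3 (72.4 against 92.4 CPM). Gadd45b, at 6.20 ± 2.02 CPM per kb, was the lowest in every liver of both groups.

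**Figure D2:**
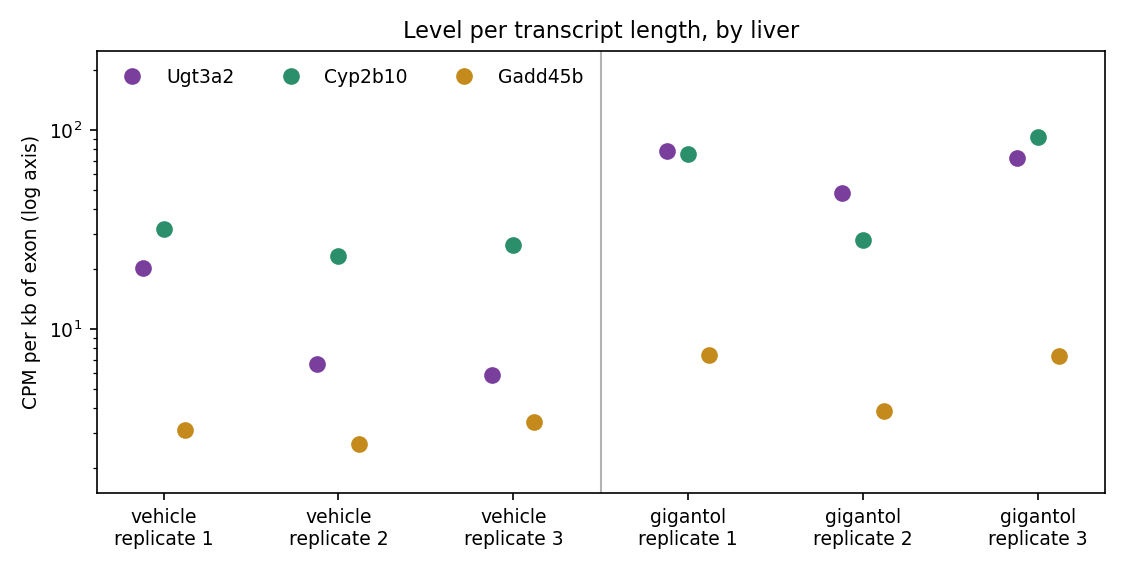
CPM per kb of exon on a log axis for the 3 genes in each of the 6 livers, vehicle on the left and gigantol on the right of the line. Cyp2b10 is above Ugt3a2 in all 3 vehicle livers, whereas Ugt3a2 is above Cyp2b10 in gigantol replicates 1 and 2, and Gadd45b is lowest throughout.

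With each liver left out in turn, none of the 3 differences changed sign. The log2(CPM + 1) difference ranged from 2.44 to 3.30 for Ugt3a2, from 0.76 to 1.62 for Cyp2b10 and from 0.70 to 1.12 for Gadd45b. The largest value came without vehicle replicate 1 for Ugt3a2, and without gigantol replicate 2 for both Cyp2b10 and Gadd45b.

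**Figure D3:**
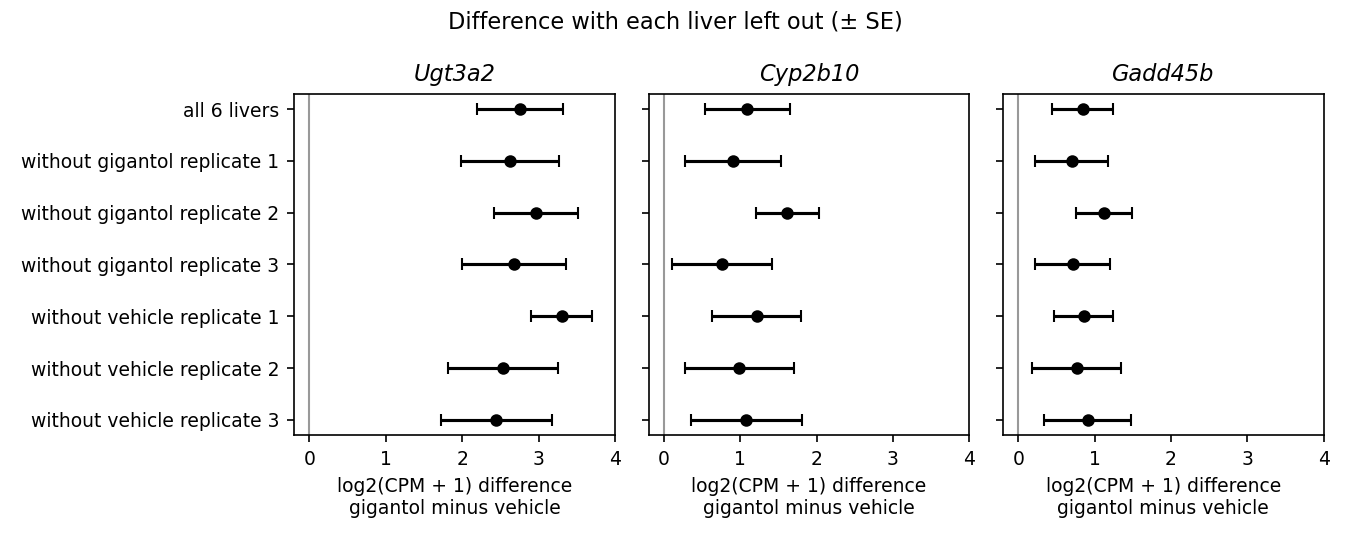
limma differences in log2(CPM + 1), gigantol minus vehicle, for each gene with all 6 livers and with each liver left out, with bars of 1 SE. Ugt3a2 lies between 2.44 and 3.30, Cyp2b10 between 0.76 and 1.62 and Gadd45b between 0.70 and 1.12.

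Gigantol replicate 2 was the lowest gigantol liver for all 3 genes, at 0.642 times the mean of the other two gigantol livers for Ugt3a2, 0.332 times for Cyp2b10 and 0.525 times for Gadd45b. Its library, at about 21300000 reads, was close in depth to that of gigantol replicate 1, at about 21200000. Of the 78 genes listed higher and with at least 1 CPM in 3 livers, gigantol replicate 2 was the lowest gigantol liver for 39 and the highest for 30. Gigantol replicates 1 and 3 were the lowest for 19 and 20 of them, and vehicle replicate 1, the highest vehicle liver for Ugt3a2 and Cyp2b10, was the highest vehicle liver for 40.

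**Figure D4:**
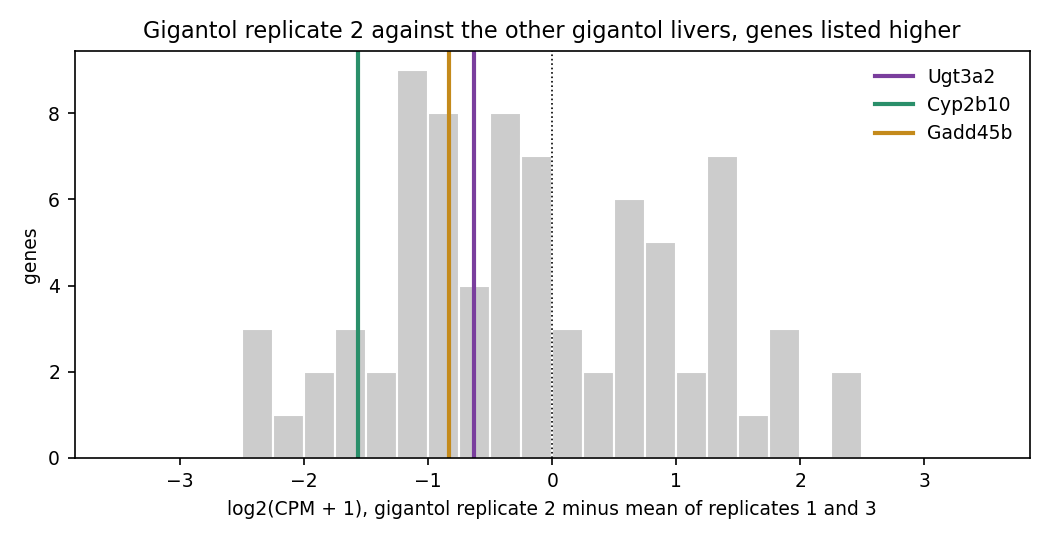
Number of genes (vertical axis) by the log2(CPM + 1) of gigantol replicate 2 minus the mean of gigantol replicates 1 and 3, for the 78 genes listed higher with at least 1 CPM in 3 livers, with lines at Ugt3a2 (-0.63), Gadd45b (-0.83) and Cyp2b10 (-1.57). The genes spread to both sides of 0, with a median of -0.30, and the 3 lines lie on the lower side.

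Likeness to each gene was measured as the root mean square distance between profiles of log2(CPM + 1) over the 6 livers, each centred on its own mean, among 169 named genes whose mean reached 1 CPM. Cyp2b10 and Gadd45b were 0.31 apart on this scale, and Ugt3a2 was 1.00 from Cyp2b10 and 1.11 from Gadd45b. Profiles were not scaled, so these distances take in the larger group difference of Ugt3a2 and do not compare the patterns alone. The profiles nearest to Cyp2b10 were those of Epha2, an ephrin receptor tyrosine kinase (0.22), Iah1, an esterase homologue (0.24), and Ppp1r10, a nuclear regulator of protein phosphatase 1 (0.25), against a median of 1.15 over the 169. Epha2 read 15.3, 6.57 and 16.3 CPM in gigantol replicates 1, 2 and 3 and 7.34, 5.83 and 4.68 CPM in vehicle replicates 1, 2 and 3, so that, as for Cyp2b10, gigantol replicate 2 lay among the vehicle livers. Iah1 and Ppp1r10 were at 41.7 ± 17.4 against 18.7 ± 1.95 and at 37.7 ± 15.2 against 14.2 ± 3.54 CPM (SD, n = 3 each), again with gigantol replicate 2 the lowest gigantol liver, at 22.1 and 22.0 CPM.

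The profiles nearest to Gadd45b were those of Treh, the enzyme trehalase (0.19), Iah1 (0.19) and Inhbe, which encodes the activin E subunit made by hepatocytes (0.20), against a median of 0.96. Inhbe was at 38.9 ± 6.55 against 17.3 ± 1.07 CPM and Treh at 1.60 ± 0.97 against 0.55 ± 0.28 CPM (SD, n = 3 each). Treh was a low gene whose groups overlapped, unlike those of Gadd45b. Its gigantol replicate 2 read 0.657 CPM, within the vehicle values of 0.274 to 0.824 CPM, and the authors' deposited table gave an FDR of 0.396. Those nearest to Ugt3a2 were Cyp4a31, a fatty acid hydroxylase (0.41), Rcc1, the exchange factor of the Ran GTPase (0.45), and Xlr3a, of an X-linked lymphocyte-regulated family (0.63), against a median of 1.86. Xlr3a was low in vehicle livers, at 0.26 to 0.508 CPM, where the added 1 CPM shrinks differences. Its log2 fold change in the authors' deposited table was 4.12, against 2.61 for Ugt3a2. Cyp4a31 shared with Ugt3a2 a high vehicle replicate 1, at 33.4 CPM where vehicle replicates 2 and 3 read 6.18 and 7.46 CPM. All genes compared come from the same 6 libraries and were listed for a difference between the same groups, so near profiles are a description of these livers.

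The other genes of drug metabolism were mostly not among the listed genes. Only 332 genes are listed, whereas the authors' FDR was over 13192 genes, so most genes of any list would be missing. Nothing is read from how few genes were listed, here or in the lists below. Of 57 targets of CAR and its relative PXR, 3 were listed and 54 were not analysed here. The 3 listed were Cyp2b10, Gadd45b and Myc, the growth-promoting transcription factor. Of these 0 had an FDR under 0.05 in the authors' deposited table, against 25.9% of all listed genes. With so few genes, nothing is read from the number passing in this list or those below. Myc was lower, at 2.21, 7.32 and 2.48 CPM in gigantol replicates 1, 2 and 3 against 6.67, 9.93 and 11.3 CPM in vehicle replicates 1, 2 and 3 (the authors' deposited table gave an FDR of 0.325). Its groups overlapped, and gigantol replicate 2, the gigantol liver with the least Cyp2b10, had the highest Myc of the gigantol livers. Of 38 genes for CAR itself, its partners and its regulators, 0 were listed, and of 20 targets of the xenobiotic sensors AhR and NRF2, 0 were listed.

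Among 32 UDP-glycosyltransferases and enzymes that supply their sugars, Ugt3a2 and Ugt2b38 were listed, both higher, and 1 of the 2 (Ugt3a2) had an FDR under 0.05 in the authors' deposited table. Ugt2b38, a UGT2B family glucuronosyltransferase, read 52.5, 54.2 and 42.6 CPM in gigantol replicates 1, 2 and 3 and 38.9, 14.4 and 14.0 CPM in vehicle replicates 1, 2 and 3. Its groups did not overlap, and vehicle replicate 1 stood apart from the other vehicle livers as it did for Ugt3a2. The means were 49.8 ± 6.27 and 22.4 ± 14.2 CPM (SD, n = 3 each), and the authors' deposited table gave an FDR of 0.186.

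Of 50 other conjugation enzymes, 2 sulfotransferases were listed. Both passed in the authors' deposited table, in opposite directions, where 25.9% of all listed genes passed. Sult5a1 rose from 0.84 ± 0.27 to 3.47 ± 2.06 CPM and Sult2a7 fell from 2.06 ± 0.26 to 0.339 ± 0.219 CPM (SD, n = 3 each). Their FDRs, per the authors' deposited table, were 0.0143 and 0.000294. Gigantol replicate 2 was the highest gigantol liver for Sult5a1. Sult2a7 read 0.094, 0.516 and 0.407 CPM in gigantol replicates 1, 2 and 3. In these livers 1 read was worth 0.0407 to 0.0471 CPM, so replicates 2 and 3 cannot be ranked for Sult2a7. Of 94 phase I enzymes, Cyp2b10 and Aox1, an aldehyde oxidase, were listed, both higher, and 0 passed. Aox1 read 19.8, 82.1 and 19.8 CPM in gigantol replicates 1, 2 and 3 and 11.7 to 14.8 CPM in vehicle livers, so its gigantol mean rested on replicate 2, the gigantol liver with the least Cyp2b10. Of 31 drug transporters, Slco1a1, a male-typical uptake transporter for organic anions, was listed and rose, from 117 ± 28.5 to 321 ± 116 CPM (SD, n = 3 each; the authors' deposited table gave an FDR of 0.000708).

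Around Gadd45b, the 33-gene list of its family, kinase partners and inducers held 3 listed genes, of which 0 passed in the authors' deposited table. Cdkn1a, the p21 inhibitor of cyclin-dependent kinases, read 22.8, 10.5 and 28.9 CPM in gigantol replicates 1, 2 and 3 and 14.0, 5.55 and 4.86 CPM in vehicle replicates 1, 2 and 3. Its groups overlapped, with gigantol replicate 2 low as for Gadd45b and vehicle replicate 1 high as for Ugt3a2. Egr1, an immediate early transcription factor, was lower in gigantol livers, at 6.56 ± 0.75 against 15.5 ± 10.3 CPM (SD, n = 3 each), with a vehicle value of 27.4 CPM in replicate 1.

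The 43 stress and immediate early genes included 7 listed genes, and all 7 were lower in gigantol livers, opposite to Gadd45b; of all 332 listed genes, 213 (64.2%) were lower. Sgk1, a kinase induced by glucocorticoids, fell from 51.6 ± 6.83 to 23.4 ± 4.23 CPM and Trib3, a pseudokinase of the amino acid stress response, fell from 20.5 ± 2.83 to 9.46 ± 2.31 CPM (SD, n = 3 each). Their FDRs, per the authors' deposited table, were 3.70e-05 and 0.00135. The other 5 were Ddit4, Egr1, Ier3, Dusp1 and Myc and did not pass, so that 2 of the 7 did, near the 25.9% of all listed genes. Ddit4, an inhibitor of mTORC1 signalling, read 14.3, 6.67 and 31.6 CPM in gigantol replicates 1, 2 and 3 against 39.5 to 51.1 CPM in vehicle livers. Of 19 circadian genes only Arntl, the core clock activator BMAL1, was listed, at 2.64 ± 1.02 against 1.28 ± 0.16 CPM (SD, n = 3 each), and it did not pass. Of 19 genes that mark pericentral or periportal hepatocytes, 0 were listed.

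Over all these lists, 14 of 372 genes were listed beside the 3 chosen ones, 6 higher and 8 lower, and 5 of the 14 had an FDR under 0.05 in the authors' deposited table (2 higher and 3 lower), beside the 25.9% of all listed genes. The median log2 fold change of the 14 was -1.09, close to the -1.15 of all 332 genes of the authors' deposited table.

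**Figure D5:**
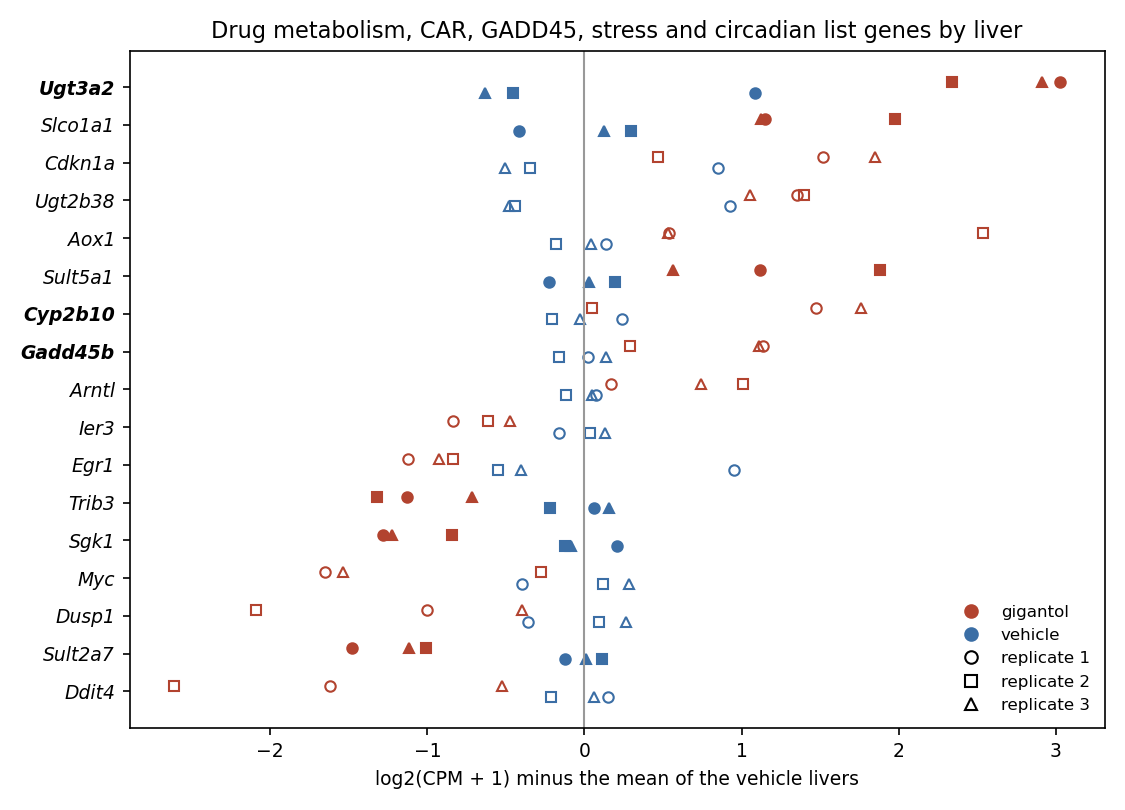
log2(CPM + 1) in each liver minus the mean of the vehicle livers (horizontal axis) for the 17 listed genes of the drug metabolism, CAR, GADD45, stress and circadian lists, with gigantol and vehicle livers in 2 colours and 1 marker shape per replicate number. Filled markers are genes with an FDR under 0.05 in the authors' deposited table; Ugt3a2 stands furthest to the right, and the 7 stress and immediate early genes lie to the left.

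Near relatives could share reads with Ugt3a2 and Cyp2b10. Of the distinct stretches of 50 bases in the GENCODE M21 transcripts of Ugt3a2, 6.39% also occur in Ugt3a1, its neighbouring paralog, and of those of Cyp2b10, 6.94% occur in Cyp2b13 and 8.70% in any other gene. Gadd45b shared 0 of its 1588 stretches with any other gene. The 7 closest paralogs (Ugt3a1, Cyp2b9, Cyp2b13, Cyp2b19, Cyp2b23, Gadd45a and Gadd45g) were not analysed here, and the sources used here do not say how the authors' counting treated shared reads. No other gene of that annotation overlaps any of the 3.

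Of 10 defining hepatocyte markers 0 were among the listed genes, so the tissue label could not be checked on them. Of 76 marker genes fixed for liver cell types, 13 were listed, all lower in gigantol livers, and 3 (Marco, Ppbp and Hba-a2) passed in the authors' deposited table, where 64.2% of all listed genes were lower and 25.9% passed. The summed level of the 7 listed erythroid and platelet markers, out of 10, was 352 to 634 CPM in gigantol and 565 to 1917 CPM in vehicle livers. The 2 listed stellate cell markers of 10 summed to 6.81 to 11.9 against 13.1 to 24.5 CPM, the 1 Kupffer cell marker of 10 was at 1.55 to 3.71 against 8.21 to 8.89 CPM, and the 3 lymphocyte markers of 10 summed to 0.565 to 0.939 against 2.00 to 2.27 CPM. None of the fixed markers listed was at 0 in any liver. The lymphocyte markers rested on few reads, with Cd8a at 0.094 and Cd79a at 0.141 CPM in gigantol replicate 1, where 1 read was worth 0.0471 CPM. Their part in the differences of Ugt3a2, Cyp2b10 and Gadd45b was not tested.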

How the data were processed

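Bulk RNA of 6 mouse livers, 3 per group, was sequenced, and each was assigned to its group by the treatment label. The submitters' processing notes name fastp, HISAT2, DESeq2 1.16.1 and GRCh38, a human build, without saying what each was used for, although every gene ID is mouse. Of 330 IDs found in GENCODE M21 (GRCm38), 8 had the same coordinates. For the read counter and any filters, the sources used here give nothing. The authors deposited CPM values, read as CPM from the values because in every library all values up to 200 reads were whole multiples of 1 step within 0.1 reads. The authors' log2 fold changes, p-values and FDRs stand beside them, per the file headers.

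The words rose and fell are kept for genes whose deposited FDR, as the authors computed it, was under 0.05. Sizes and SE come from limma 3.58.1 (R 4.3.3) with trended, robust variance moderation on log2(CPM + 1), fitted to all 201 genes with at least 1 CPM in 3 livers; differences on that scale understate those of low genes. The script was tested on simulated data. The genes listed are a selection on the same contrast, so limma p-values within the table are not used for calls. Genes named are the 3 chosen genes, list genes that were listed, and for each of the 3 the 3 nearest profiles. The members and lists were chosen with earlier results of these data known. Counting errors cover counting alone: reads carry no stated molecular identifiers, so PCR copies of a molecule may count more than once. Alternatives were other pseudocounts, no filter, a replicate block and leaving out each liver.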

Additional observations from a re-analysis of the deposited data

How the results depend on the processing

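The log2(CPM + 1) differences of Ugt3a2, Cyp2b10 and Gadd45b kept their direction under every alternative run (pseudocounts of 0.1 and 0.5 CPM, no filter on low values, a replicate block and each liver left out), and each moved by less than its spread between livers. With a pseudocount of 0.1 CPM they were 2.80, 1.10 and 0.95. The number of genes with a limma adjusted p under 0.05, adjusted within the preselected table, was 111 of 201. In the authors' deposited table, 86 of 332 had an FDR under 0.05, adjusted over 13192 genes, so the 2 counts are not on the same footing. The limma count was 169 with no filter on low values, where 332 genes were tested. It was 25 to 119 with 1 liver left out, where 180 to 186 genes were tested. Leaving out gigantol replicates 1, 2 and 3 gave 43, 96 and 46, and leaving out vehicle replicates 1, 2 and 3 gave 119, 25 and 26. What moved the count in these runs was not tested. With the replicate block the limma count was 128 and the differences of the 3 genes were unchanged at 2.76, 1.09 and 0.84. Deviations of livers with the same number correlated at 0.13, 0.15 and -0.10 over 201 genes. Those of livers with different numbers correlated at -0.17 to 0.15. With 3 livers a group and preselected genes, these values cannot decide whether same-numbered livers share more than a number. The planned edgeR test on whole reads worked out from the CPM steps was not run. A simpler search that starts from each library's smallest value did not recover the steps of the 3 vehicle libraries. In 1 of these libraries no value was that of a single read. The depths, read numbers and counting errors given rest on the wider search for the step alone. With 108 to 285 reads per liver, Gadd45b had a larger counting error than the other chosen genes. Its limma SE, at 0.40, was nonetheless below those of Cyp2b10 (0.55) and Ugt3a2 (0.56), with 3 livers a group.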

Other observations

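Some listed genes share a KEGG pathway with Gadd45b or Cyp2b10 in the annotation deposited with the table. In the FoxO signalling pathway, which links insulin and stress signals to transcription, 6 genes were listed. Gadd45b and Cdkn1a were higher in gigantol livers and had FDRs above 0.05 in the authors' deposited table, whereas Sgk1, Tnfsf10, G6pc and Irs2 fell. Of the Gadd45b pathways this one held the most passing genes, and 25.9% of all listed genes passed, so nothing is read from that count. Among the Cyp2b10 pathways, steroid hormone biosynthesis held 6 listed genes, with 1 higher and 1 lower passing. Retinol metabolism held 8, with 2 lower passing, and arachidonic acid metabolism held 6, with 1 lower passing. Chemical carcinogenesis by receptor activation held 5, with 2 higher and 0 lower passing. The broad term for metabolic pathways held 30, with 3 higher and 8 lower passing. Beside the 25.9% of all listed genes that passed, nothing is read from these counts either. Tnfsf10, the death ligand TRAIL, went from 6.19 ± 3.19 to 1.80 ± 0.22 CPM, and Irs2, an insulin receptor substrate, from 35.5 ± 9.58 to 11.7 ± 7.64 CPM (SD, n = 3 each). Gigantol replicate 2 had the most G6pc (294 CPM against 74.6 and 123 CPM) and the most Irs2 (19.9 CPM against 4.71 and 10.5 CPM) of the gigantol livers, and the least Gadd45b and Cdkn1a. For all 4 of these genes it was the gigantol liver nearest to the vehicle mean.

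The KEGG pathway for pentose and glucuronate interconversions, which makes and uses the sugar donor of glucuronidation, holds none of the 3 chosen genes in that annotation. Of its 3 listed genes, Ugt2b38 was higher and the aldo-keto reductases Akr1b3 and Akr1b8 were lower. Akr1b3 fell from 12.7 ± 0.66 to 5.44 ± 1.65 CPM (SD, n = 3 each; the authors' deposited table gave an FDR of 0.00135), and Akr1b8, at 1.39 ± 0.62 against 3.37 ± 1.01 CPM, did not pass.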
